A study of Homo sapiens with 22 samples.

Results

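The comparison described here set 3 JHOC5 arrays of cells infected with the SPINK1 knockdown lentivirus #9 (replicates c, d and e) against 5 JHOC5 arrays of cells infected with the NT control lentivirus (replicates a to e, titled Experiments A to E). These 8 arrays were chosen by their titles from the 22 arrays of the series, whose other groups are JHOC5 with an IL-6 knockdown lentivirus (#58, 3 arrays) and JHOC9 with the SPINK1 virus (3 arrays), the IL-6 virus (3 arrays) or NT (5 arrays). All groups carry a lentivirus, so no array shows uninfected cells, and SPINK1 was targeted by 1 virus only. JHOC5 is an established line of ovarian clear cell carcinoma, kept in 10% serum, while JHOC9, a second line of the same tumour type, was kept in 20% serum. Whether arrays of a group stem from different cultures is not stated, and p-values here cover only array-to-array spread, part of which may be technical.

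SPINK1 encodes a secreted inhibitor of trypsin that protects the pancreas from its own protease. Many carcinomas make it outside the pancreas, where it has been studied as a growth factor-like protein that can act through the epidermal growth factor receptor. Ovarian clear cell carcinoma is a histological type often linked to endometriosis and to IL-6 signalling. A knockdown virus delivers a short hairpin RNA that directs degradation of a matching transcript.

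Each array (GeneChip Human Transcriptome Array 2.0) reports 65526 transcript clusters, units that stand for a transcribed region, and all of them were tested. Levels are log2 signal, and a change is the difference of group means on that scale, SPINK1 knockdown minus NT. The files pair no cluster with a gene, so clusters are given by ID, the levels of SPINK1 itself and of markers of the tumour type were not analysed here, and the efficiency of the knockdown is not known from these values. The median signal of the 8 arrays lay between 4.78 and 4.88 log2 units. The median absolute difference between 2 arrays over all clusters was 0.0946 to 0.118 among the 3 knockdown pairs and 0.0781 to 0.116 among the 10 NT pairs. It was 0.0991 to 0.171 among the 15 pairs of a knockdown and an NT array. The ranges overlap, with a median of 0.0996 among the knockdown pairs, 0.105 among the NT pairs and 0.12 among the pairs across groups. Knockdown replicate c differed from the NT arrays by 0.0991 to 0.116, and the highest value, 0.171, was for knockdown replicate e and NT replicate d.

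The SPINK1 virus was followed by a broad set of mostly small changes with a long tail of falls. At a limma adjusted p under 0.05, 4284 clusters were called, or 6.54% of those tested. Of these, 2531 fell (3.86%) and 1753 rose (2.68%). The median change was -0.45 log2 units among the falls and 0.34 among the rises, against 0.05 over all clusters. A change of at least 1.5-fold was reached by 836 falls and 195 rises, and at least 2-fold by 269 falls and 19 rises. At least 4-fold, 3 clusters fell and 0 rose. Before any test, 269 clusters were at least 2-fold lower and 20 at least 2-fold higher. The excess of falls therefore grew with the size of the change.

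**Figure D1:**
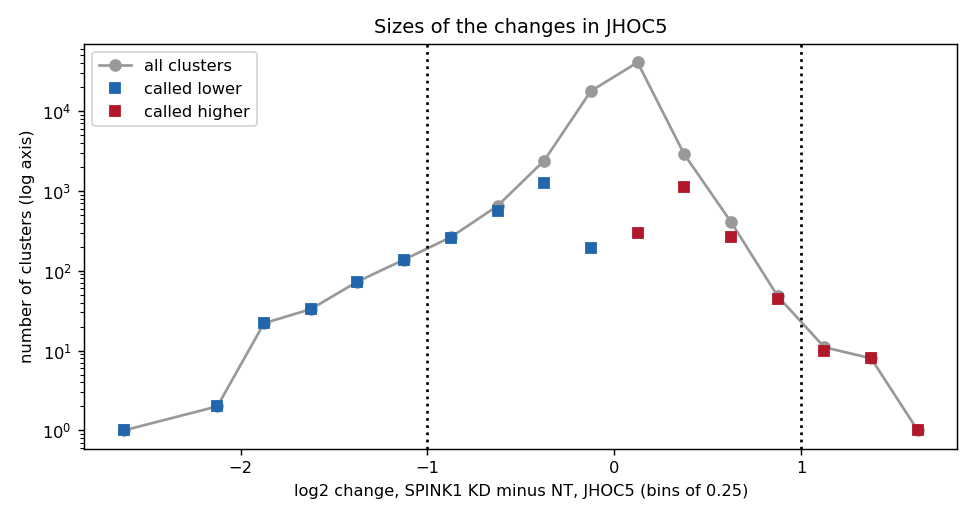
Number of clusters (log axis) in bins of 0.25 log2 units of the SPINK1 knockdown minus NT change in JHOC5, for all clusters (grey) and for those called lower (blue) or higher (red), with dotted lines at 2-fold. Past 2-fold there are 269 falls and 19 rises, and the falls reach further from 0.

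The split between the directions changed with the processing, and the median of all clusters was itself 0.05 higher with the virus. Centring each array on its median left 2672 falls and 1109 rises, with 309 falls and 17 rises of at least 2-fold. Array weights gave 3416 falls and 3631 rises, with more rises than falls. Without SPINK1 knockdown replicate d the call count was 2771 (1760 falls and 1011 rises), and without replicate e it was 2624 (1696 falls and 928 rises). Falls of at least 2-fold numbered 209 to 366 when any 1 of the 8 arrays was left out, and such rises 17 to 30, with 30 without SPINK1 knockdown replicate c.

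The cluster with the largest fall was TC01002412.hg.1. Its log2 signal was 6.92, 6.87 and 6.83 on SPINK1 knockdown arrays c, d and e, against 9.24, 9.52, 9.25, 8.97 and 9.94 on NT arrays a to e. The groups do not overlap, and the lowest NT array stood more than 2 log2 units above the highest knockdown array. The mean was 6.87 ± 0.05 (SD, n = 3) with the SPINK1 virus and 9.39 ± 0.36 (SD, n = 5) with NT, so the NT arrays spread far more than the knockdown arrays. The change was -2.51 ± 0.15 (SE), a 5.71-fold fall, with a limma adjusted p of 1.65e-09.

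TC04002654.hg.1 had the next largest fall. It measured 6.38, 5.87 and 5.62 on knockdown arrays c, d and e, against 8.15, 7.84, 8.27, 8.41 and 7.94 on NT arrays a to e. All knockdown arrays lay below all NT arrays, and here the knockdown arrays had the wider spread. The change was -2.16 ± 0.17 (SE), a 4.48-fold fall, with a limma adjusted p of 2.27e-08.

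TC01001685.hg.1 showed the largest rise. It measured 9.24, 9.35 and 9.49 on knockdown arrays c, d and e, against 7.49, 7.56, 7.85, 7.71 and 7.79 on NT arrays a to e. The groups are more than 1 log2 unit apart at their nearest arrays. The change was 1.68 ± 0.11 (SE), a 3.21-fold rise, with a limma adjusted p of 3.00e-09.

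TC08001051.hg.1 rose next. Its signal was 9.52, 9.62 and 9.98 on knockdown arrays c, d and e, against 8.12, 8.29, 8.30, 8.20 and 8.28 on NT arrays a to e. The NT arrays lie close together, and knockdown array e is the highest of the 8. The change was 1.47 ± 0.12 (SE), a 2.76-fold rise, with a limma adjusted p of 6.61e-08. In each of 20 alternative settings, all 4 clusters kept direction and call, and their highest limma adjusted p was 1.54e-04. Of these settings, 8 left out a single array, and another restated the same values as log2 of the linear signal. The 4 were chosen as the largest changes on these arrays, so their persistence is a description.

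**Figure D2:**
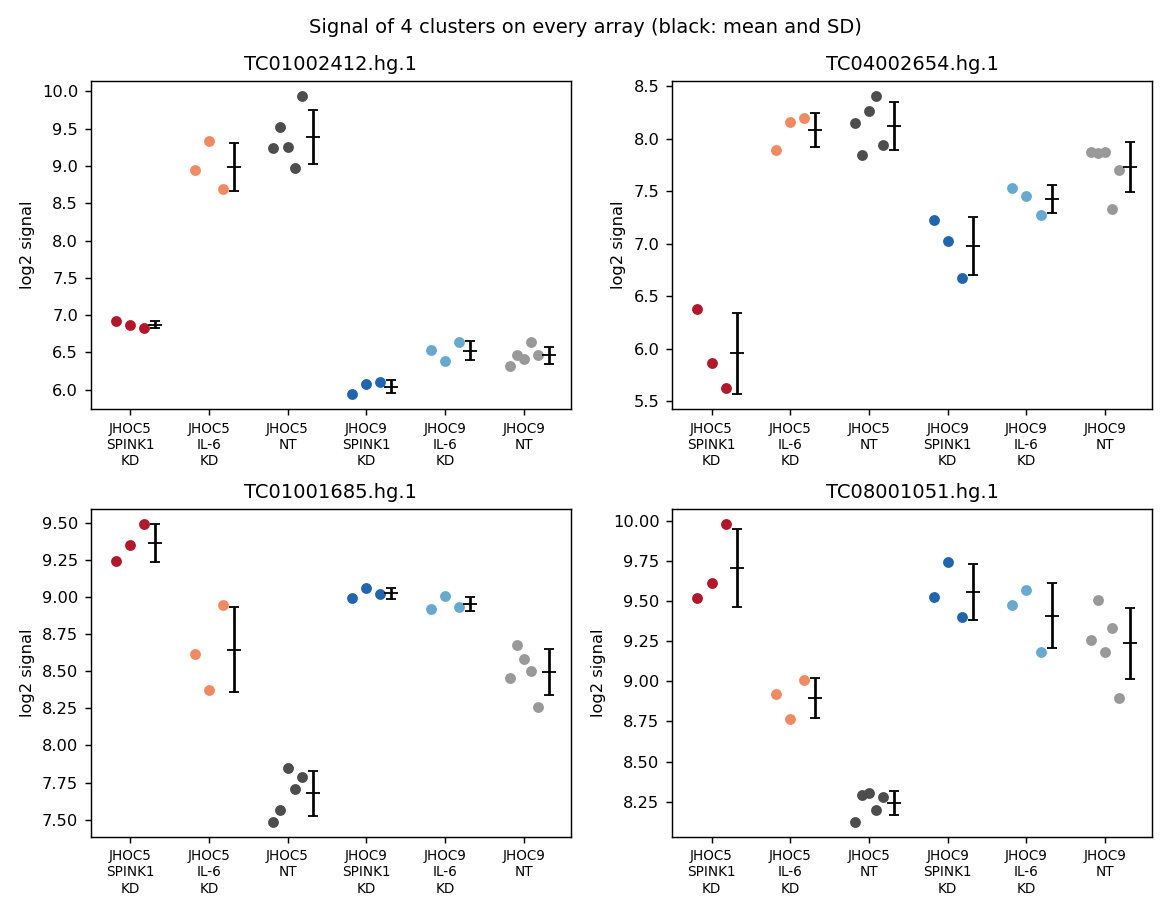
Log2 signal of the 2 largest falls (top) and the 2 largest rises (bottom) on all 22 arrays, by group, with the mean and SD in black beside the points. In JHOC5 the SPINK1 knockdown arrays lie apart from the NT arrays in each panel, with means of 6.87 and 9.39 for TC01002412.hg.1.

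The 3 knockdown arrays differed in how far they moved. Over the 2531 falls, the median difference from the NT mean was -0.37 on replicate c, -0.50 on replicate d and -0.52 on replicate e. Over the 269 falls of at least 2-fold it was -0.999, -1.32 and -1.46 on replicates c, d and e. Replicate e was the lowest knockdown array for 1423 of the falls, replicate d for 928 and replicate c for 180. The rises showed the same order, with medians of 0.30, 0.35 and 0.37 and with replicate e the highest for 833 of 1753, replicate d for 565 and replicate c for 355. By these values replicate c was the array nearest to NT for the changed clusters in both directions. Over all clusters the median difference from the NT mean rose in the same order, at 0.019, 0.053 and 0.06 on replicates c, d and e. For the rises, the order was thus not particular to the called clusters.

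All knockdown arrays lay below all NT arrays for 2401 of the 2531 falls, where 6.01% of all clusters did, and above them for 1630 of the 1753 rises, where 9.41% did. Called clusters were chosen for differing, so this separation is a description. Set against the NT array of its own letter, each of the 3 knockdown arrays was lower for 2523 falls (99.7%) and higher for 1735 rises (99.0%). Over all clusters these shares were 14.1% and 34.4%. Within letters, TC01002412.hg.1 differed by -2.33, -2.10 and -3.11 log2 units on replicates c, d and e. The spread of the falls was slightly wider with the SPINK1 virus, at a median SD of 0.117, against 0.102 with NT. It was slightly narrower for the rises (0.0865 against 0.0880) and over all clusters (0.0907 against 0.0956).

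Changes were concentrated among bright clusters. The clusters were ranked by mean signal over the 22 arrays and split into 5 bins of equal size. In the brightest bin (above 6.68 log2 units), 11.1% fell and 6.65% rose. In the dimmest bin (below 3.19), 0.214% fell and 0.671% rose. Falls outnumbered rises in the upper 3 bins, with 283 against 164, 650 against 478 and 1457 against 872. Rises outnumbered falls in the lower 2, with 88 against 28 and 151 against 113. The median change over all clusters of a bin was positive throughout, at 0.035, 0.046, 0.059, 0.073 and 0.031 from the dimmest bin to the brightest. How far this shift set the direction of the calls in a bin was not tested. The median SE of a change was 0.0755, 0.0864, 0.0924, 0.0906 and 0.0873 from the dimmest bin to the brightest. It was smallest in the dimmest bin and largest in the middle one. The reason for the concentration among bright clusters was not tested.

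Changes of at least 1.5-fold, counted with no test, were also more frequent in the brightest bin than in the dimmest. A fall of at least 1.5-fold was measured for 3.97% of the brightest bin and 0.0458% of the dimmest, and a rise of that size for 1.08% and 0.0305%. The rises did not climb at each step (0.237% in the next to dimmest bin and 0.221% in the middle one). By this count falls and rises were nearly equal in the lower 2 bins, where the limma calls held more rises. They numbered 6 against 4 in the dimmest bin (0.0458% against 0.0305%) and 34 against 31 in the next (0.259% against 0.237%). These counts are too small to show a direction. Of the 269 falls past 2-fold, 176 lay in the brightest bin and 72 in the next, and none lay in the dimmest.

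**Figure D3:**
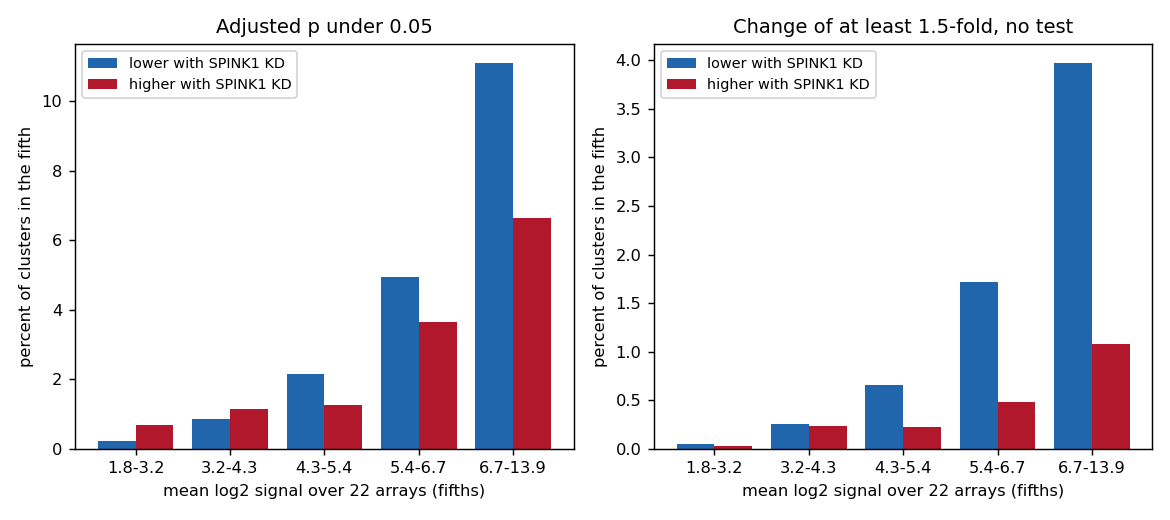
Percent of clusters lower (blue) or higher (red) with the SPINK1 virus in JHOC5, in 5 bins of equal size by mean log2 signal, for limma calls (left) and for changes of at least 1.5-fold with no test (right). Both panels are highest at the bright end, where 11.1% of clusters fell and 6.65% rose by the test.

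The IDs carry a code for a chromosome after the letters TC, by the array maker's naming. Called clusters were spread over all numbered codes. The share that fell lay between 1.51% for code 21 and 5.09% for code 1, beside 3.86% over all clusters, and the share that rose lay between 1.49% for code 5 and 4.24% for code 19, beside 2.68%. Falls outnumbered rises in 16 of the 22 numbered codes. Code 9 had 87 rises and 85 falls, code 16 had 77 and 73, code 17 had 115 and 100, and code 20 had 58 and 46. Code 21 had 26 rises and 16 falls, and code 22 had 39 and 25. The split between the directions changed with the processing, and the other settings were not counted by code. Code 19 had high shares both ways, with 4.99% falling and 4.24% rising, and its clusters were bright, at a median signal of 6.01 log2 units. Codes 13 and 4, with low shares of rises (1.52% and 1.94%), had median signals of 3.94 and 4.03, but their shares of falls (4.31% and 4.40%) were above that of all clusters. The brighter codes 22 and 17 (median signals of 5.75 and 5.70) had shares of falls of 2.60% and 3.48%, below it. Code 21 held 0 falls of at least 2-fold among 1063 clusters, and code 1 held 36 among 6341, where 0.411% of all clusters fell that far.

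**Figure D4:**
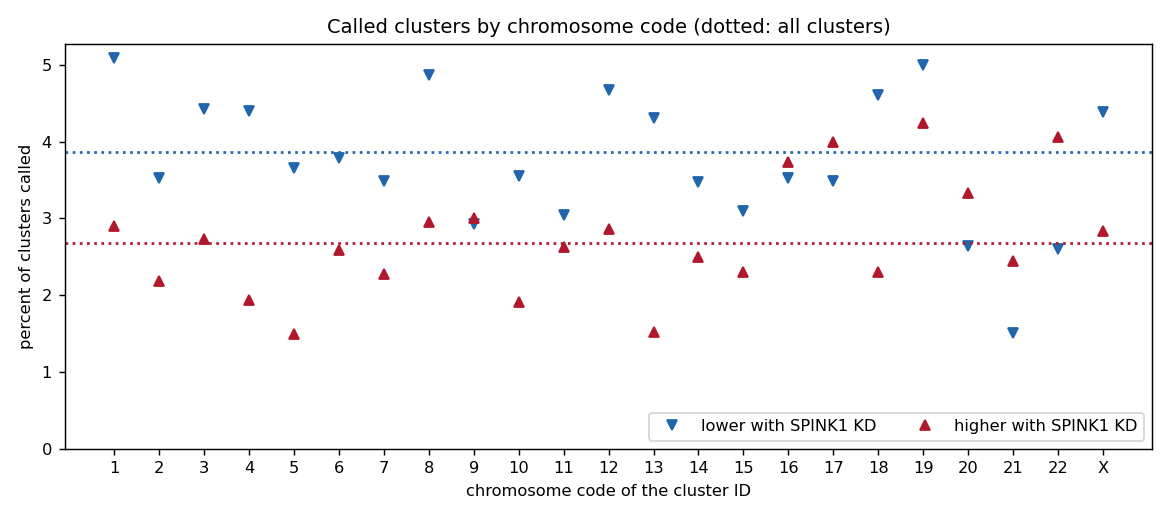
Percent of clusters lower (blue, pointing down) or higher (red, pointing up) with the SPINK1 virus in JHOC5, by the chromosome code of the cluster ID, with dotted lines at the shares over all clusters, 3.86% and 2.68%. Among the numbered codes, 1 and 19 lie highest for falls (5.09% and 4.99%), and 19 and 22 highest for rises (4.24% and 4.06%).

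Clusters with consecutive numbers within a code were called in the same direction more frequently than the overall share, though in most such pairs the next cluster was not called. Among 62901 pairs of consecutive numbers, leaving out clusters that repeat the values of another, the next cluster also fell after 236 of 2457 falls (9.61%), where 3.90% of all next clusters fell. After a rise the next also rose in 107 of 1657 pairs (6.46%, against 2.65%). Opposite calls followed each other at about the overall share, with a rise after 2.44% of falls and a fall after 4.04% of rises. The longest run was 6 consecutive falls with code 19, with changes between -0.66 and -0.45. A run of 5 falls with code 6 spanned -1.39 to -0.59. Consecutive falls formed 30 runs of 3 or more clusters, and consecutive rises formed 7. The files do not say whether such neighbours overlap, share probes or are parts of 1 transcript.

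Whether the clusters moved by the SPINK1 virus in JHOC5 also moved in JHOC9 was examined with separate fits, so that no array and no estimate of spread entered both. The fit of the 11 JHOC5 arrays called 3958 clusters, 2358 lower and 1600 higher, and 3509 of them were among the 4284 above. The fit of the 11 JHOC9 arrays called 19 clusters lower (0.0290%) and 0 higher (0%) with the SPINK1 virus. Without adjustment, 1444 JHOC9 clusters were lower (2.20%) and 1315 higher (2.01%) at a limma p under 0.05. The count of 0 higher did not hold in every setting: the replicate block gave 12 lower and 1 higher, and array weights gave 1387 lower and 1177 higher.

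Of the 2358 clusters that fell in JHOC5, 82.4% had a lower mean with the SPINK1 virus in JHOC9, beside 51.9% of all clusters. Of the 1600 that rose in JHOC5, 81.8% had a higher mean in JHOC9, beside 48.1% of all clusters. These shares were 75.8% to 86.6% and 77.9% to 83.8% when any 1 JHOC9 array of the comparison was left out, and 71.9% and 73.8% with array weights. Arrays of the same letter deviated together in JHOC9, although SPINK1 knockdown array c correlated more with NT array d (0.44) than with its own letter (0.20). With the letter as a block in the JHOC9 fit the shares were 85.8% and 83.6%, beside 46.6% lower and 53.4% higher over all clusters. With the block in the fits of both lines, which also changes the clusters called in JHOC5, they were 80.8% and 70.2%. The changes themselves were small in JHOC9, at a median of -0.10 for the falls and 0.09 for the rises (-0.11 and 0.08 with the JHOC9 block), against -0.47 and 0.34 in JHOC5. An unadjusted limma p under 0.05 in the same direction was found in JHOC9 for 613 of the falls (26%) and 270 of the rises (16.9%). In the opposite direction it was found for 6 falls and 3 rises. Of the 269 clusters that fell at least 2-fold in JHOC5, 260 had a lower mean in JHOC9, with a median change of -0.29, against -1.25 in JHOC5. The median level of these 269 in JHOC9 was 6.76 log2 units with the SPINK1 virus, 6.85 with the IL-6 virus and 7.12 with NT. A level below NT in JHOC9 was thus not particular to the SPINK1 virus for these clusters. In the fit of all arrays together, 2531 falls and 1753 rises were called. In JHOC9 these falls had a median level of 6.83 with the SPINK1 virus, 6.80 with the IL-6 virus and 6.95 with NT. The rises had medians of 6.72, 6.63 and 6.63 in that order. By these medians both viruses lay below NT for the falls, and only the SPINK1 virus lay above it for the rises. How far the shared directions were particular to the SPINK1 virus was not tested.

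Of the 19 clusters called lower in JHOC9, 17 were also called lower in JHOC5, which is 89.5% of the JHOC9 falls and 0.721% of the JHOC5 falls, where 3.60% of all clusters fell in the JHOC5 fit. This count rests on single arrays. It was 4, 3 and 2 without JHOC9 SPINK1 knockdown replicate a, b or c, and 3, 7, 4 and 9 without JHOC9 NT replicate a, b, c or e. It was 11 with the replicate block, 11 after median centring of each array, and 442 under array weights.

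The 4 clusters shown above all moved in the same direction in JHOC9, by less. TC01002412.hg.1 averaged 6.04 ± 0.09 (SD, n = 3) with the SPINK1 virus and 6.46 ± 0.11 (SD, n = 5) with NT, and no knockdown array reached an NT array. Its change in the separate JHOC9 fit was -0.42 ± 0.08 (SE), with a limma adjusted p of 0.238. Its NT level in JHOC9 was thus below the JHOC5 level reached with the SPINK1 virus.

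TC04002654.hg.1 averaged 6.98 ± 0.28 (SD, n = 3) in JHOC9 with the SPINK1 virus and 7.73 ± 0.24 (SD, n = 5) with NT. The change of -0.75 ± 0.14 (SE) had a limma adjusted p of 0.206. TC01001685.hg.1 differed by 0.53 ± 0.08 (SE, limma adjusted p of 0.0786) and TC08001051.hg.1 by 0.32 ± 0.13 (SE, limma adjusted p of 1). None of the 4 passed the threshold in JHOC9 alone, and with the replicate block their limma adjusted p lay between 0.107 and 0.589.

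The difference between the lines was tested directly as the JHOC5 change minus the JHOC9 change. It passed for 813 of all clusters (1.24%). The 4 clusters were chosen for the size of their JHOC5 change on the same arrays, which favours a larger change in JHOC5, so their differences are a description and their p-values no independent support. TC01002412.hg.1 fell further in JHOC5 by a difference of -2.10 ± 0.22 (SE, limma adjusted p of 4.99e-05), and TC04002654.hg.1 by -1.41 ± 0.23 (SE, limma adjusted p of 0.00218). TC01001685.hg.1 rose further in JHOC5 by 1.16 ± 0.15 (SE, limma adjusted p of 3.58e-04), and TC08001051.hg.1 by 1.15 ± 0.17 (SE, limma adjusted p of 0.0011). Line and serum content cannot be told apart in these differences.

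The IL-6 virus in JHOC5 gives the levels under another knockdown lentivirus. TC01002412.hg.1 averaged 8.99 ± 0.32 (SD, n = 3) with it, and TC04002654.hg.1 averaged 8.08 ± 0.16 (SD, n = 3), both means lying within the range of the NT arrays. For TC01002412.hg.1, IL-6 knockdown arrays a (8.945) and c (8.691) lay below the lowest NT array (8.972), and array b measured 9.333. Its change with the IL-6 virus was -0.40 ± 0.15 (SE, limma adjusted p of 0.356), and that of TC04002654.hg.1 was -0.04 ± 0.17 (SE, limma adjusted p of 0.965). The rises lay further from NT. TC01001685.hg.1 averaged 8.64 ± 0.29 (SD, n = 3) and TC08001051.hg.1 8.90 ± 0.12 (SD, n = 3) with the IL-6 virus, and each of its arrays lay above all NT arrays for both clusters.

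Set against the IL-6 virus directly, which leaves the NT arrays out of the difference, 3914 clusters differed (5.97%). The clusters named below were chosen for their change against NT on the same SPINK1 knockdown arrays, which favours a larger difference here. Their differences are therefore a description, and their p-values no independent support. TC01002412.hg.1 differed with the SPINK1 virus by -2.12 ± 0.17 (SE, limma adjusted p of 8.84e-08), beside -2.51 against NT. TC04002654.hg.1 differed by -2.12 ± 0.18 (SE, limma adjusted p of 1.94e-07), nearly the whole of its change of -2.16 against NT. TC01001685.hg.1 was higher by 0.72 ± 0.12 (SE, limma adjusted p of 4.97e-04) and TC08001051.hg.1 by 0.81 ± 0.14 (SE, limma adjusted p of 5.10e-04). Against NT, the IL-6 virus itself raised these by 0.97 ± 0.11 (SE, limma adjusted p of 2.23e-05) and 0.66 ± 0.12 (SE, limma adjusted p of 0.00567). Both comparisons with NT use the same NT arrays.

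The clusters past 2-fold can be placed beside all groups by their levels. The 269 falls had a median level of 6.48 log2 units with the SPINK1 virus in JHOC5, 7.77 with the IL-6 virus and 7.79 with NT. In JHOC9 their median was 6.76 with the SPINK1 virus, 6.85 with the IL-6 virus and 7.12 with NT. The 19 rises had a median of 7.20 with the SPINK1 virus in JHOC5, 5.85 with the IL-6 virus and 5.93 with NT. In JHOC9 the median of the rises was 6.93 with the SPINK1 virus, 6.93 with the IL-6 virus and 6.44 with NT. By these medians both viruses lay on the same side of NT in JHOC9, below it for the falls and above it for the rises. The falls ended mostly above the dim range, since 20 of the 269 averaged below the median signal of the knockdown arrays with the SPINK1 virus, against 1 below that of the NT arrays with NT. These clusters were chosen for their JHOC5 levels with the SPINK1 virus and NT, so those 2 medians are a description.

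**Figure D5:**
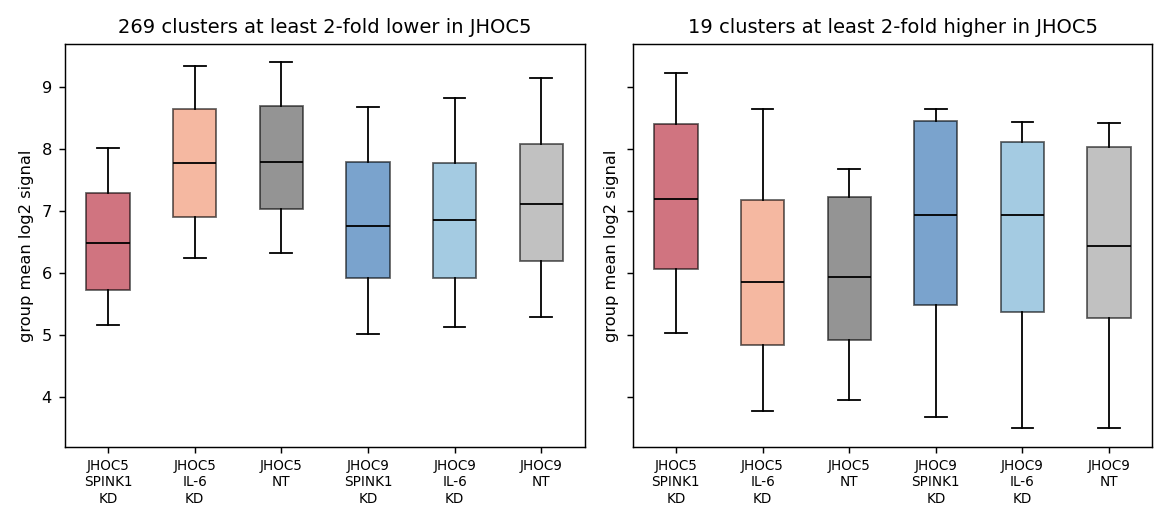
Group mean log2 signal of the 269 clusters at least 2-fold lower (left) and the 19 at least 2-fold higher (right) in JHOC5 with the SPINK1 virus, in all 6 groups, as boxes (quartiles and median) with whiskers from the 10th to the 90th percentile. With the IL-6 virus the JHOC5 medians lie at 7.77 and 5.85, close to the NT medians of 7.79 and 5.93.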

How the data were processed

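Total RNA (200 ng) was labelled with biotin and hybridised, per the labels. RMA is named in the submitters' processing notes. For its software, annotation and build the entry is: not given in the sources used here. One deposited table, the series matrix, has log2 values centred on each cluster's median. The other deposited table holds the same values and a linear intensity per cluster, from which levels were taken as log2; array medians lay between 4.78 and 4.95 log2 units. An overall shift in RNA content would not appear in such values.

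All 22 arrays entered 1 model of 6 group means in limma 3.58.1 (R 4.3.3), with eBayes and two-sided tests, Benjamini-Hochberg adjusted over 65526 clusters at 0.05. The residual degrees of freedom were 16, plus 4.22 from the prior. Clusters equal to another within 1e-05 on all arrays (1034) count as repeats. The clusters named are the 2 largest falls and 2 largest rises that were called with all knockdown arrays outside the NT range. The fits were run on simulated data with known changes and independent noise. Those data held no effect shared by arrays of 1 letter, so the run checks the code and not the calls made here. Comparisons, clusters and settings were chosen with earlier results of these data known. Gene lists and cell type markers were planned for named clusters only and were not analysed here.

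SPINK1 knockdown and NT arrays with 1 letter were compared by their deviations from group means, which correlated at 0.27 (c), 0.06 (d) and 0.37 (e) in JHOC5, so this comparison was not treated as paired. In JHOC9 they correlated at 0.43 (a), 0.32 (b) and 0.20 (c), all over 0.1. JHOC9 values are from the fit without a block unless the block is named.

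Plots used matplotlib 3.10.9 (Python 3.11.15).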

Additional observations from a re-analysis of the deposited data

Results flagged for a closer look

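By limma's test of the difference, the SPINK1 knockdown minus NT change differed between JHOC5 and JHOC9 for 813 clusters. Line and serum content cannot be told apart here, and the efficiency of the knockdown in either line is not known from these values. Among the clusters shown, the JHOC5 change minus the JHOC9 change was -2.10 for TC01002412.hg.1, -1.41 for TC04002654.hg.1, 1.16 for TC01001685.hg.1 and 1.15 for TC08001051.hg.1. These 4 were chosen for the size of their JHOC5 change, so a larger change in JHOC5 follows in part from the choice.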

How the results depend on the processing

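For the JHOC5 comparison, 17 of 23 alternatives kept the call count within 1.5 times of 4284. It was 7047 with array weights, 1031 at a fold of at least 1.5, 288 at a fold of at least 2, 2553 at an adjusted p under 0.01, and between 2624 and 4243 without single arrays (2771 when SPINK1 knockdown array d was left out, 2624 when e was). The JHOC9 count of 19 in its own fit was 11 with arrays centred on their median, 2564 with array weights, and between 2 and 13 without single arrays. The 813 clusters that differed between the lines were 3621 with array weights and between 442 and 1100 without single arrays, with 442 when JHOC5 knockdown array d or e was left out and 539 and 449 without JHOC9 replicates a and b of that virus. The 3914 that differed between the viruses in JHOC5 came to 8118 under array weights (4159 higher, 3959 lower), and 1465 were higher and 1455 lower without IL-6 knockdown replicate c. The largest array weights were 6.46 (JHOC9 SPINK1 knockdown replicate b) and 3.28 (JHOC5 IL-6 knockdown replicate b). The cause of these shifts was not tested.

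With the replicate letter as a block, 5761 clusters were called in JHOC5, 2435 higher and 3326 lower, and 13 in JHOC9, 1 higher and 12 lower. In JHOC5 only knockdown replicate e correlated best with its own letter, while replicate c did so with NT replicate d (0.31) and replicate d with NT replicate b (0.11). With letters c, d and e only, an alternative chosen after seeing the data, 3230 were called, 1038 higher and 2192 lower. The number of arrays limits the precision of all values.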
